A study of Mus musculus with 9 samples.

Results

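The expression of 44 genes of the lysosome and of the vacuolar ATPase (V-ATPase) was compared between R7-I, R7-II and R7-III, 3 CD8 T cell clones, after exposure to their peptide. The genes were taken by symbol from a list drawn up by function, and all 44 were found among the 24060 genes measured. All 44 also belonged to the 11330 genes with a maximum above 1 TPM, a unit of length-corrected level, the set in which differences were tested. By role, the list held 8 genes of the V0 sector of the V-ATPase, 8 of its V1 sector, 2 accessory proteins, 7 cathepsins, 10 hydrolases acting mainly on glycans and lipids, 4 activators and lipid carriers, 4 membrane proteins and 1 transcription factor.

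R7-I, R7-II and R7-III are transnuclear mouse lines on a Rag2-proficient BALB/c background, each made from the nucleus of 1 CD8 T cell that recognized the ROP7 peptide of Toxoplasma gondii, so that a clone stands for 1 T cell receptor and 1 line. Measured on purified proteins, the receptor of R7-I binds the peptide most strongly and that of R7-II most weakly, with R7-III in between. In the paper's membrane-anchored assay the affinities of R7-I and R7-III were similar and that of R7-II was lower. Splenocytes of each line were cultured overnight with ROP7 peptide at 10 µM and IL-2 at 10 ng/ml. Cells that were CD3+ CD8+ H-2Ld-Rop7+ were then collected by sorting and their polyadenylated RNA was sequenced without strand information, in 3 libraries per clone. Cells kept without peptide were not analysed here, so each difference is one between clones after peptide and not a response to it.

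Lysosomes are the acidic compartments in which cells break down proteins, glycans and lipids delivered by endocytosis and autophagy. The V-ATPase acidifies them. Its V1 sector, in the cytosol, hydrolyses ATP, and its V0 sector, in the membrane, carries the protons. Many of these genes share a short promoter element through which the transcription factor TFEB raises them together when nutrients are scarce, and in T cells lysosome-related granules also store the proteins used for killing.

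TPM is a level corrected for transcript length and sums to a fixed total in each library, so it does not show a library's depth. Between 13738 and 14434 genes were above 0 TPM in a library. The labels call the libraries of a clone biological replicates without naming animals, and p-values measure the spread between these libraries. The 5 genes that define the sorted cells (Cd3d, Cd3e, Cd3g, Cd8a and Cd8b1) lay between 168 and 555 TPM in all libraries, and their sum was 1369 to 1411 TPM in R7-I, 2064 to 2113 in R7-II and 1580 to 1597 in R7-III. In bulk RNA, fewer cells of a type and less RNA per cell cannot be told apart.

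The lysosomal genes were set apart in R7-II and differed little between R7-I and R7-III. Transcripts of proteins that work inside the lysosome differed more than those of the pump that acidifies it. The protease cathepsin D (Ctsd) and prosaposin (Psap), the precursor of the activators of sphingolipid breakdown, were 2.50-fold and 2.08-fold higher in R7-II than R7-I by the ratio of mean TPM, while Atp6v1a, the catalytic subunit of the pump, was 1.03-fold higher. With limma on log2(TPM + 1) and a Benjamini-Hochberg adjusted p of 0.01, 29 of the 44 members were higher in R7-II than R7-I, 1 was lower and 14 did not pass. Of all genes tested, 40.6% were higher and 15.5% were lower in this comparison. Against R7-III, 25 members were higher, 1 was lower and 18 did not pass, where 35.6% of all genes were higher and 18.0% were lower. The median log2 fold change of the members was 0.39 relative to R7-I and 0.28 relative to R7-III, beside 0.17 and 0.12 over all genes tested. The share of genes called higher depended on how the libraries were scaled: with a median-of-ratios factor taken out of each library, which brings the median of all genes close to 0, 23 members were higher and 6 lower relative to R7-I (25.2% and 29.4% of all genes), and 16 were higher and 4 lower relative to R7-III (25.0% and 28.2% of all genes). Fold changes on the log2(TPM + 1) scale understate those of genes with a low TPM.

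**Figure D1:**
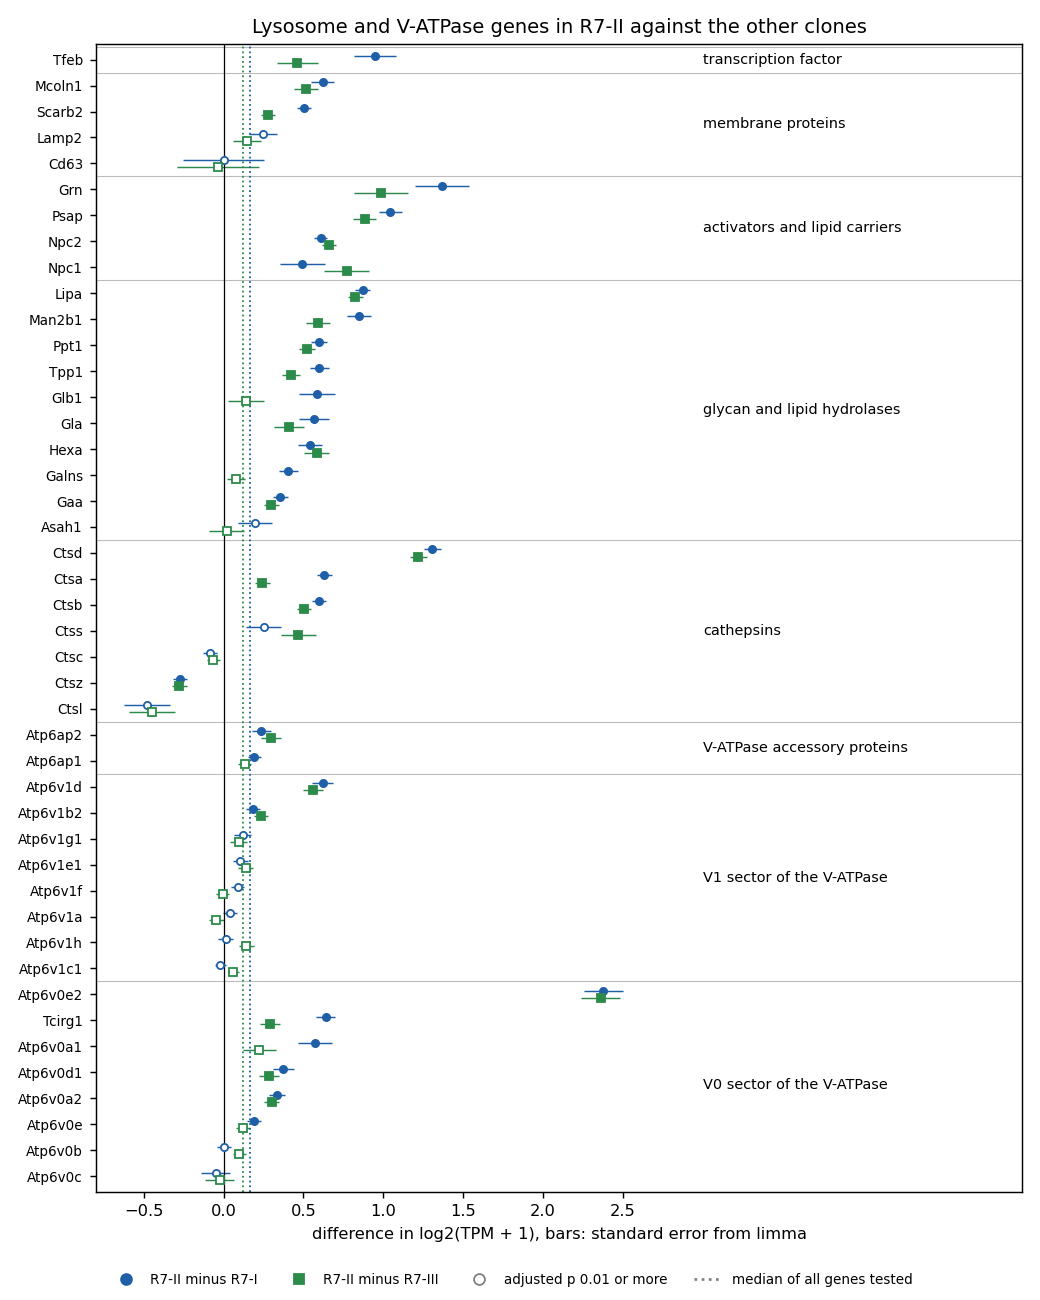
Difference in log2(TPM + 1) between R7-II and R7-I (circles) and between R7-II and R7-III (squares) for each of the 44 genes, grouped by role, with the standard error from limma as bars. Filled symbols passed an adjusted p of 0.01 and dotted lines mark the median of all genes tested (0.17 and 0.12). The activators and most hydrolases lie to the right of these lines, and 6 of the 8 V1 subunits lie to the left of the line for R7-I.

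Both comparisons share the R7-II libraries, so a gene that passed in both is not supported by independent data. In both, 24 members were higher in R7-II (31.9% of all genes tested), 1 was lower (12.8%), and 7 were higher by more than 0.58 on the log2 scale (11.9%). After median-of-ratios scaling, 15 were higher in both (20.5%) and 3 were lower (23.5%). The 7 over 0.58 were Ctsd, Psap, Lipa, Man2b1, Npc2, Grn and Atp6v0e2, of which 6 encode proteins of the lysosomal lumen and 1 a subunit of the pump. Atp6v0e2 passed the filter of 1 TPM only through R7-II, which favoured its call. The other 17 higher in both were Atp6v0a2, Tcirg1, Atp6v0d1, Atp6v1b2, Atp6v1d, Atp6ap2, Ctsa, Ctsb, Hexa, Gaa, Gla, Ppt1, Tpp1, Npc1, Scarb2, Mcoln1 and Tfeb, and 13 members passed in neither.

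Ctsd (chr7:142375910-142387827 in GRCm38, the same build as mm10) was measured at 66.0, 63.0 and 66.8 TPM in R7-I replicates 1 to 3, at 176, 149.6 and 164 TPM in R7-II and at 70.3, 69.2 and 68.8 TPM in R7-III. Every R7-II library lay above every library of the other clones. The log2 fold change was 1.31 ± 0.05 (SE, n = 3 per clone) relative to R7-I (adjusted p = 3.33e-08 from limma) and 1.22 ± 0.05 relative to R7-III (adjusted p = 6.59e-08). It was the largest change in the luminal groups relative to R7-III, and Grn alone exceeded it relative to R7-I.

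In both comparisons, R7-II had more of all 4 activators and lipid carriers. Psap (chr10:60277628-60302600) was at 84.6, 89.4 and 91.3 TPM in R7-I, at 200.1, 159 and 193 TPM in R7-II and at 97.4, 98.2 and 101 TPM in R7-III. R7-II did not overlap with either clone, and replicate 2 was its lowest library. The log2 fold change of Psap was 1.04 ± 0.07 relative to R7-I and 0.88 ± 0.07 relative to R7-III (adjusted p = 7.17e-07 and 2.14e-06 from limma). Npc2 (chr12:84754559-84773112), which hands cholesterol from the lumen to the membrane, had the highest mean level of this group and stood at 109, 108 and 104 TPM in R7-I, at 164, 157 and 169 TPM in R7-II and at 103, 108 and 98.6 TPM in R7-III. Its values were steady within each clone, and it rose by 0.61 ± 0.04 relative to R7-I and by 0.66 ± 0.04 relative to R7-III. Its membrane partner Npc1 was at 9.0 to 11.7 TPM in R7-I, 11.7 to 18.2 in R7-II and 7.39 to 8.54 in R7-III, and R7-II met R7-I at 11.72 TPM. Relative to R7-I its log2 fold change of 0.49 had an adjusted p of 0.00904 from limma, and the call was lost in 14 of 20 other settings, with adjusted p between 0.0123 and 0.247, among them median-of-ratios scaling, quantile normalization, a block for the replicate number and the removal of any 1 of 7 libraries.

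Grn (chr11:102430507-102436809), which encodes progranulin, a secreted and lysosomal protein, was low in all clones. It was at 0.78, 0.94 and 0.77 TPM in R7-I, at 4.21, 2.58 and 4.64 TPM in R7-II and at 1.67, 1.10 and 1.41 TPM in R7-III. R7-II lay above both clones, with the widest spread of the 24 members higher in both comparisons (1.80-fold between its highest and lowest library). The log2 fold change was 1.37 ± 0.17 relative to R7-I and 0.99 ± 0.17 relative to R7-III (adjusted p = 3.99e-05 and 4.20e-04 from limma).

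**Figure D2:**
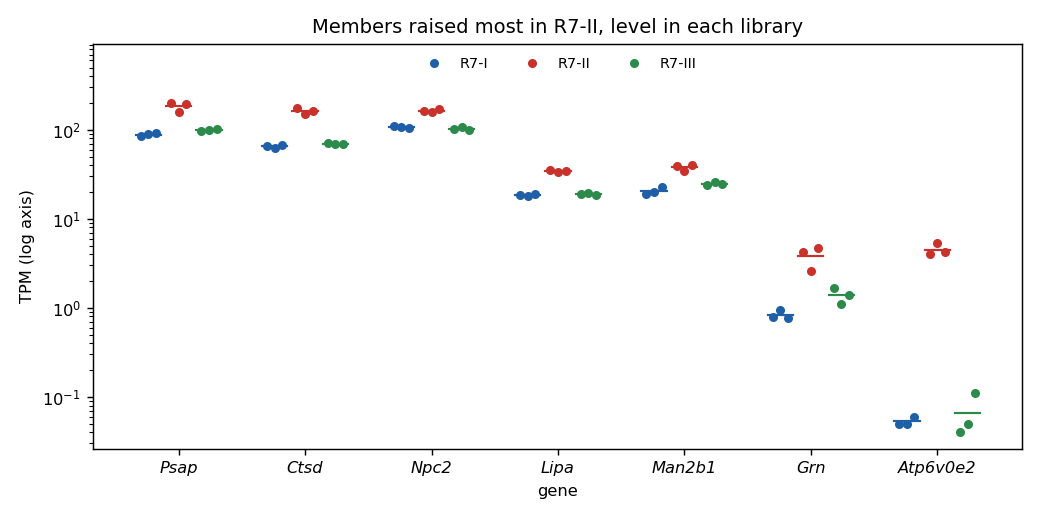
TPM (log axis) in each library, as points, with the clone mean as a line, for the 7 genes higher in R7-II than both other clones by more than 0.58 on the log2 scale. No R7-II point overlaps with a point of R7-I or R7-III in any of the 7 genes, which follows largely from how they were chosen in these same libraries. Atp6v0e2 lies near the finest step of the table in R7-I and R7-III.

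Among the 10 hydrolases, 9 were higher in R7-II than R7-I and 7 were higher than in R7-III (40.6% and 35.6% of all genes). None was lower in either, also at an unadjusted limma p of 0.05. The median log2 fold change was 0.57 and 0.42, beside 0.17 and 0.12 over all genes tested. After median-of-ratios scaling 9 and 6 were higher (25.2% and 25.0% of all genes) and none was lower. Lipa (chr19:34492316-34527474), the acid lipase that frees cholesterol from its esters, was at 18.5, 18.0 and 19.0 TPM in R7-I, at 35.7, 33.7 and 34.7 TPM in R7-II and at 19.2, 19.6 and 18.6 TPM in R7-III. R7-II stood clear of both clones, and R7-I and R7-III overlapped. The log2 fold change was 0.87 ± 0.05 relative to R7-I and 0.82 ± 0.05 relative to R7-III (adjusted p = 1.32e-07 and 2.02e-07 from limma). Man2b1 (chr8:85082730-85098739), an alpha-mannosidase, was at 19.2, 20.0 and 22.6 TPM in R7-I, at 39.3, 34.2 and 40.2 TPM in R7-II and at 23.7, 25.8 and 24.9 TPM in R7-III. Its R7-III libraries lay between the other clones, and its log2 fold change was 0.85 ± 0.07 relative to R7-I and 0.59 ± 0.07 relative to R7-III.

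Tpp1, a peptidase and the hydrolase of highest mean level, was at 29.6, 29.5 and 30.5 TPM in R7-I, at 50.7, 43.95 and 42.9 TPM in R7-II and at 33.1, 34.3 and 34.2 TPM in R7-III. R7-II was again clear of both clones, by 0.60 ± 0.06 relative to R7-I and 0.42 ± 0.06 relative to R7-III. Ppt1, which removes palmitate from proteins, rose by 0.60 and 0.52, and Hexa, a subunit of beta-hexosaminidase, by 0.54 and 0.58; 12.8% of the exon bases of Hexa overlap with Tmem202 on the other strand. The alpha-galactosidase Gla and the alpha-glucosidase Gaa rose by less, 0.41 and 0.30 relative to R7-III. Glb1, the beta-galactosidase, and Galns, which removes sulfate from glycosaminoglycans, passed as higher in R7-II relative to R7-I, by 0.58 and 0.41. Relative to R7-III their log2 fold changes were 0.14 (adjusted p = 0.292) and 0.08 (adjusted p = 0.259). The acid ceramidase Asah1 passed neither test, at 3.77 to 4.81, 4.54 to 5.37 and 4.50 to 5.74 TPM in R7-I, R7-II and R7-III.

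The 7 cathepsins did not move as a group. R7-II had more Ctsd, Ctsa and Ctsb in both comparisons; Ctss passed as higher relative to R7-III and not to R7-I, Ctsz was lower in both, and Ctsc and Ctsl passed neither test. The cysteine protease Ctsb was at 21.5 to 22.1 TPM in R7-I, 32.4 to 34.9 in R7-II and 22.7 to 24.1 in R7-III, a log2 fold change of 0.60 ± 0.05 and 0.50 ± 0.05, with 12.8% of its exon bases shared with Fdft1 on the other strand. Ctsz, a carboxypeptidase, was at 94.4, 104 and 94.5 TPM in R7-I, at 77.9, 81.0 and 82.9 TPM in R7-II and at 101, 99.2 and 93.5 TPM in R7-III. All R7-II libraries lay below all others, and the log2 fold change was -0.27 ± 0.05 relative to R7-I and -0.28 ± 0.05 relative to R7-III (adjusted p = 3.93e-04 and 3.69e-04 from limma). Ctsc, which activates the granzymes of killer cells, was at 55.0 to 63.3 TPM over all 9 libraries, and it passed as lower in R7-II after median-of-ratios scaling (-0.27 and -0.19, adjusted p = 3.44e-04 and 0.00293 from limma) and under quantile normalization. With median-of-ratios scaling 3 cathepsins were higher and 3 lower relative to R7-I (25.2% and 29.4% of all genes). Relative to R7-III, 2 were higher and 3 lower (25.0% and 28.2%). Ctsl was at 13.5, 13.0 and 10.99 TPM in R7-I, at 8.10, 6.83 and 11.5 TPM in R7-II and at 11.7, 12.7 and 12.0 TPM in R7-III, with an adjusted p of 0.0124 and 0.0184 from limma, and 26.8% of its exon bases overlap with the antisense gene Gm47123.

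The V-ATPase as a whole moved about as much as the median gene. Of its 18 genes, 10 were higher in R7-II than R7-I and 7 were higher than in R7-III (40.6% and 35.6% of all genes). None was lower (15.5% and 18.0% of all genes), and the median log2 fold change was 0.19 and 0.14. Without Atp6v0e2, which passed the filter of 1 TPM only through R7-II, 9 and 6 of 17 were higher. At an unadjusted limma p of 0.05, 0 of the 18 were lower in either comparison. After median-of-ratios scaling, 5 were higher and 3 lower relative to R7-I (25.2% and 29.4% of all genes). Relative to R7-III, 3 were higher and 1 lower (25.0% and 28.2%), and the medians in these comparisons were 0.001 and 0.008. In the V1 sector only Atp6v1d and Atp6v1b2 passed, both as higher in R7-II. Atp6v1d, of the central stalk, was at 49.5, 48.8 and 55.2 TPM in R7-I, at 72.7, 80.1 and 84.8 TPM in R7-II and at 51.4, 53.2 and 55.4 TPM in R7-III, which is 0.62 ± 0.06 and 0.56 ± 0.06 on the log2 scale. Atp6v1b2, of the catalytic head, rose by 0.19 ± 0.05 and 0.23 ± 0.05, and relative to R7-I this became -0.001 after median-of-ratios scaling. The catalytic subunit Atp6v1a was at 45.4, 42.5 and 44.7 TPM in R7-I, at 47.6, 45.7 and 43.2 TPM in R7-II and at 47.0, 46.8 and 46.9 TPM in R7-III. R7-II overlapped with both other clones. The 95% interval of its log2 fold change was -0.06 to 0.14 relative to R7-I and -0.14 to 0.05 relative to R7-III. Atp6v1a passed as lower in R7-II than R7-III after median-of-ratios scaling (-0.175, adjusted p = 0.00399 from limma). It also did so under quantile normalization (-0.187, adjusted p = 0.00253 from limma). Atp6v1f, the V1 gene of highest level, was at 244, 246 and 262 TPM in R7-I, at 255, 283 and 263 TPM in R7-II and at 269, 268 and 265 TPM in R7-III, and did not pass in either comparison. The other V1 subunits, Atp6v1c1, Atp6v1e1, Atp6v1g1 and Atp6v1h, did not pass either, with log2 fold changes between -0.02 and 0.12 relative to R7-I and between 0.06 and 0.14 relative to R7-III.

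**Figure D3:**
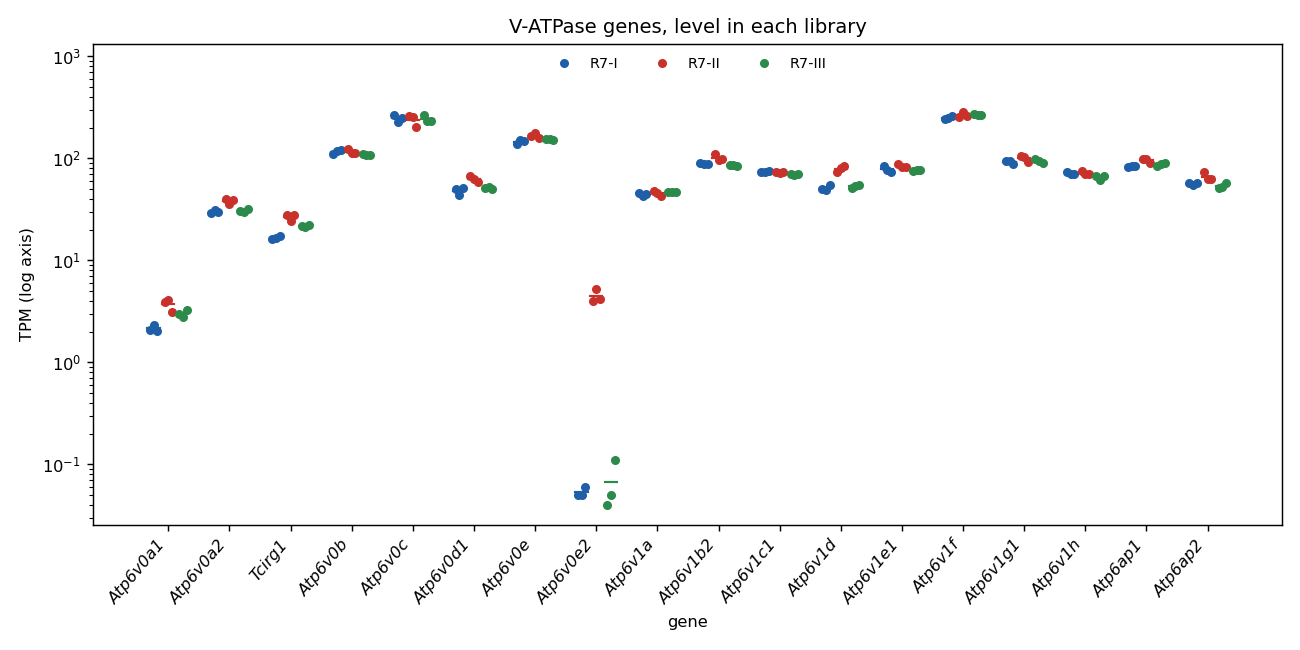
TPM (log axis) of the 18 V-ATPase genes in each library, as points, with the clone mean as a line. Most subunits lie close together in the 3 clones, whereas Atp6v0e2 is at 4.00 to 5.29 TPM in R7-II and at 0.11 TPM or less in the other clones.

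Of the 8 V0 subunits, 6 passed as higher in R7-II relative to R7-I and 4 relative to R7-III (40.6% and 35.6% of all genes). After median-of-ratios scaling, 4 were higher and 1 (Atp6v0b) lower relative to R7-I (25.2% and 29.4% of all genes). Relative to R7-III, 2 were higher and 0 lower (25.0% and 28.2%). Atp6v0e2 (chr6:48537569-48541801), the less abundant of the e subunits, was at 0.05, 0.05 and 0.06 TPM in R7-I, at 4.00, 5.29 and 4.21 TPM in R7-II and at 0.04, 0.05 and 0.11 TPM in R7-III. Outside R7-II it was thus near the finest step that the table resolves, 0.01 TPM. It passed the filter of 1 TPM only through R7-II, so its call was favoured by the filter. Its log2 fold change was 2.38 ± 0.12 relative to R7-I and 2.36 ± 0.12 relative to R7-III (adjusted p = 1.22e-07 and 1.49e-07 from limma), which depends on the pseudocount of 1. Even so it made up 2.62% ± 0.29 (SD, n = 3) of the summed TPM of the e subunits in R7-II, the rest being Atp6v0e at 157 to 176 TPM.

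The a subunit, which anchors the stator of the pump, is made from Atp6v0a1, Atp6v0a2 or Tcirg1 here. Tcirg1, known for its part in T cells and bone resorption, was at 16.2, 16.6 and 17.4 TPM in R7-I, at 28.0, 24.3 and 27.7 TPM in R7-II and at 21.6, 21.1 and 22.0 TPM in R7-III. The 3 clones did not overlap. Its share of the summed a subunit TPM, which no scaling of a library can alter, was 34.2% ± 0.9 (SD, n = 3) in R7-I, 38.9% ± 1.0 in R7-II and 39.0% ± 0.4 in R7-III, and that of Atp6v0a2 was 61.4%, 55.6% and 55.5%. In this share R7-II and R7-III overlapped and R7-I was apart. Atp6v0a2 was itself higher in R7-II by 0.33 and 0.30, as was the connecting subunit Atp6v0d1 by 0.38 and 0.29. After median-of-ratios scaling Atp6v0d1 passed in neither comparison, and Tcirg1 no longer passed relative to R7-III. Atp6v0a1, at 2.03 to 4.13 TPM, passed relative to R7-I (0.58) and not to R7-III (0.23, adjusted p = 0.0828 from limma).

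Atp6v0c, the proton-carrying ring subunit and the V0 gene of highest level, was at 265, 228 and 249 TPM in R7-I, at 262, 253 and 205 TPM in R7-II and at 264, 233 and 231 TPM in R7-III. The libraries of each clone overlapped with the others, and Atp6v0b, another ring subunit, also passed in neither comparison (0.004 and 0.10). Its pseudogene Atp6v0c-ps2, which shares sequence with it, ranged from 6.29 to 79.0 TPM, with R7-I replicate 1 lowest, while the sum of both stayed between 271 and 303 TPM, so the split of reads between them is uncertain. Of the accessory proteins, Atp6ap2 rose in both comparisons (0.24 and 0.30) and Atp6ap1 passed relative to R7-I and not to R7-III. The Atp6ap2 call relative to R7-I was lost in 10 of 20 other settings, with adjusted p between 0.01003 and 0.378 from limma. After median-of-ratios scaling Atp6ap2 passed in neither comparison. Atp6ap1 was at 82.3, 84.7 and 85.0 TPM in R7-I, at 99.6, 98.4 and 90.6 TPM in R7-II and at 84.5, 88.6 and 89.5 TPM in R7-III, and the lowest R7-II library was just above the highest R7-III library.

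Summed over the 21 cathepsins, hydrolases, activators and carriers, the level was 670, 680 and 679 TPM in the R7-I libraries, 1071, 962 and 1062 TPM in R7-II and 709, 716 and 703 TPM in R7-III. Summed over the 18 V-ATPase genes it was 1506, 1469 and 1517 TPM in the R7-I libraries, 1695, 1668 and 1569 TPM in R7-II and 1537, 1499 and 1498 TPM in R7-III. Both sums were higher in all R7-II libraries than in the others. After median-of-ratios scaling this held for the luminal sum, at 916 to 982 in R7-II and 705 to 731 elsewhere, and not for the V-ATPase sum, at 1452 to 1588 in R7-II, 1552 to 1599 in R7-I and 1501 to 1577 in R7-III. The ratio of the luminal sum to the V-ATPase sum, in which the scaling of a library cancels, was 0.452 ± 0.010 (SD, n = 3) in R7-I, 0.628 ± 0.050 in R7-II and 0.470 ± 0.008 in R7-III. Ctsd, Psap and Npc2 hold much of it: without these 3 genes the ratio was 0.272 to 0.286 in R7-I, 0.297 to 0.341 in R7-II and 0.286 to 0.294 in R7-III. Of the 21 luminal genes, 16 were higher and 1 lower in R7-II than R7-I (40.6% and 15.5% of all genes). Against R7-III, 15 were higher and 1 lower (35.6% and 18.0%). After median-of-ratios scaling these counts were 15 and 3 relative to R7-I (25.2% and 29.4% of all genes). They were 12 and 3 relative to R7-III (25.0% and 28.2%).

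**Figure D4:**
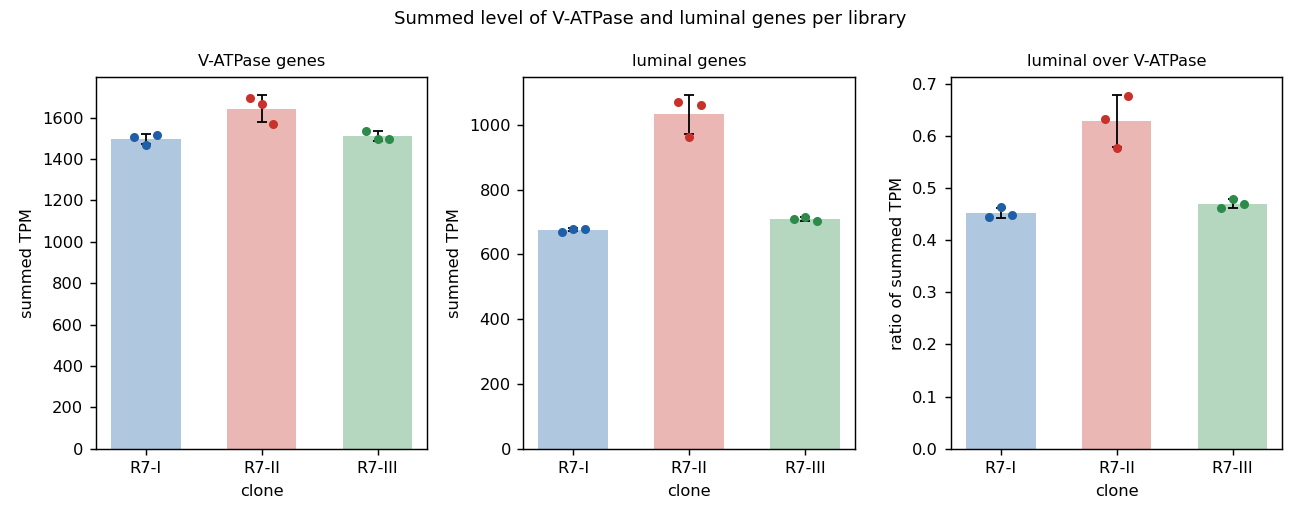
Summed TPM of the 18 V-ATPase genes (left) and of the 21 luminal genes (middle), and the luminal sum divided by the V-ATPase sum (right), for each clone. Points are libraries, bars are means and error bars are SD over 3 libraries; the ratio lies between 0.577 and 0.677 in R7-II and between 0.445 and 0.478 in the 6 other libraries.

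The 4 membrane proteins were split. Mcoln1, the calcium channel of the lysosome, rose by 0.62 ± 0.07 relative to R7-I and 0.52 ± 0.07 relative to R7-III, from 18.2 to 20.0 TPM in R7-I and 19.0 to 22.3 in R7-III to 28.5 to 32.9 in R7-II. Scarb2, the receptor that carries beta-glucocerebrosidase to lysosomes, rose by 0.50 and 0.28. Lamp2, a coat protein of the lysosomal membrane and the most abundant of this group, was at 27.2, 27.4 and 30.3 TPM in R7-I, at 39.7, 31.8 and 30.4 TPM in R7-II and at 29.6, 31.7 and 29.8 TPM in R7-III. R7-II replicate 1 alone stood high, and the gene passed in neither comparison. Cd63, a tetraspanin of lysosomes and granules, was low and variable, at 1.52 to 3.11, 1.85 to 2.60 and 1.09 to 3.10 TPM.

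Tfeb itself was at 3.13, 3.84 and 2.56 TPM in R7-I, at 7.69, 6.73 and 6.57 TPM in R7-II and at 4.47, 5.75 and 4.26 TPM in R7-III. The 3 clones did not overlap. The log2 fold change was 0.95 ± 0.13 relative to R7-I and 0.46 ± 0.13 relative to R7-III (adjusted p = 9.17e-05 and 0.00936 from limma). The second call lay close to the threshold and was lost in 12 of 20 other settings, with adjusted p between 0.0123 and 0.108, among them median-of-ratios scaling, quantile normalization and the removal of any 1 R7-II library. TFEB acts when it enters the nucleus, which RNA levels do not show.

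The element that TFEB binds has an 8-base core, TCACGTGA, around the E-box CACGTG. Both words read the same on either strand, and each match of the first holds 1 of the second. A RefSeq promoter window of GRCm38.p6, from 250 bases before to 50 after a transcript start, was given for 35 of the 44 members, and 7 of the 35 (20.0%) held TCACGTGA, beside 2.43% of 8504 tested genes and 0.974% of all 32851 windows. CACGTG was in 11 of the 35 (31.4%) and in 12.4% of the tested genes. No window was given for Atp6v1g1, Ctsb, Asah1, Npc1, Galns, Atp6v1c1, Atp6v1b2, Atp6v1h and Atp6v0a2. The 7 members were Ctsd, Ctsa, Gla, Mcoln1, Atp6v0d1, Atp6v0e and Atp6v1a. Relative to R7-I, 6 were higher in R7-II (40.6% of all genes tested) and Atp6v1a did not pass. Relative to R7-III, Atp6v0e did not pass either (adjusted p = 0.0337 from limma). After median-of-ratios scaling Atp6v0e and Atp6v0d1 no longer passed relative to R7-I (0.003 and 0.19). Under that scaling Ctsa, Gla and Atp6v0d1 no longer passed relative to R7-III. In Ctsa and Atp6v1a the RefSeq start of the matching window lies 901 and 443 bases inside the GENCODE gene model, so these matches are not upstream of the whole gene, while in the other 5 the 2 starts coincide. A match is a description of these bases and not a measured binding site. The stretches below are shown because 3 belong to genes that rose in R7-II and the last to a pump subunit. With TPM as deposited, that subunit passed in no comparison. Each match upstream of the RefSeq start is in capitals, with the transcript's own strand written 5′ to 3′.
Ctsd, chr7:142387893-142387952, minus strand: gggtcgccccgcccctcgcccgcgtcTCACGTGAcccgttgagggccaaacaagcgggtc
Mcoln1, chr8:3500447-3500506, plus strand: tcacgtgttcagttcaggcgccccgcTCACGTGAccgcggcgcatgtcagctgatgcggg
Gla, chrX:134601167-134601255, minus strand: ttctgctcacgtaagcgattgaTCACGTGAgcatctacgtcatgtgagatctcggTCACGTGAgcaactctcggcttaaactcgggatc
Atp6v1a, chr16:44139358-44139417, minus strand: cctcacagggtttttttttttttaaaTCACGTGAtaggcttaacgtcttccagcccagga
Counted from the transcript start, the capitals begin at base -99 in Ctsd, -46 in Mcoln1, -228 and -195 in Gla and -132 in Atp6v1a.

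Between R7-III and R7-I, 4 members were higher in R7-III and none was lower, where 6.96% of all genes were higher and 1.45% lower, and no member changed by more than 0.58. At an adjusted p of 0.05, 8 members were higher, and at an unadjusted limma p of 0.05, 3 (Atp6v0b, Atp6v1c1 and Atp6v1h) were lower. The 4 higher ones were Ctsa, Tcirg1, Galns and Scarb2. Ctsa, a carboxypeptidase that also shields other hydrolases from breakdown, was at 28.3, 27.2 and 29.0 TPM in R7-I, at 45.5, 42.1 and 44.9 TPM in R7-II and at 37.9, 35.7 and 37.8 TPM in R7-III. Its clones did not overlap, and R7-III was above R7-I by 0.39 ± 0.05 (adjusted p = 4.04e-04 from limma) and below R7-II by 0.24 ± 0.05, with 10.5% of its exon bases shared with Pltp on the other strand. Ctsa was the only one of the 4 to pass with every library left out in turn, and just 1 member passed without R7-I replicate 1 or 2 or without R7-III replicate 1, 2 or 3. Tcirg1 was higher by 0.35 ± 0.06, Galns by 0.33 ± 0.06 and Scarb2 by 0.23 ± 0.04. Galns, at 7.54 to 7.59 TPM in R7-I, 9.62 to 9.90 in R7-III and 9.84 to 10.6 in R7-II, had overlapping values in R7-II and R7-III. By mean TPM, 27 of the 44 members had the order R7-I, R7-III, R7-II from low to high, which was the order of 37.8% of all genes tested. In 23 of these 27 members R7-I and R7-III did not differ past the threshold.

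Cathepsins and progranulin are also abundant in macrophages and other antigen-presenting cells, and markers of such cells were higher in R7-II. For macrophages and monocytes, 15 of 16 listed markers were in the table, and their sum was 5.60 to 7.94 TPM in the R7-I libraries, 45.7, 24.9 and 83.3 TPM in R7-II replicates 1 to 3 and 6.56 to 8.21 TPM in R7-III. Most of it in R7-II was Lyz2, at 28.2, 13.8 and 56.7 TPM. In R7-II 9, 9 and 10 of the 15 were above 0.1 TPM, beside 6, 8 and 5 in R7-I and 7, 6 and 7 in R7-III. Csf1r, which defines these cells, was at 1.30, 0.66 and 3.83 TPM in R7-II and at 0.12 TPM or less elsewhere, and C1qa, C1qb, C1qc, Marco and Vcam1 were at 0.18 TPM or less in every library. The 10 B cell markers summed to 74.5, 35.6 and 57.7 TPM in R7-II, 8.69 to 15.7 in R7-I and 5.45 to 7.95 in R7-III, and the 7 MHC class II markers to 183, 113 and 181 TPM in R7-II, 32.4 to 50.3 in R7-I and 24.3 to 28.1 in R7-III. The 8 neutrophil markers reached 11.7 TPM in R7-II replicate 3 and at most 2.79 elsewhere, with Elane at 0 in all libraries. The 8 dendritic cell markers summed to 1.77 to 2.84 TPM in R7-II, 3.66 to 5.41 in R7-I and 2.88 to 5.50 in R7-III. Only 3 of them were tested: Batf3 and Zbtb46 passed as lower in R7-II in both comparisons, and Xcr1, at 0.91 to 1.45 TPM in R7-II and 0.71 to 0.82 elsewhere, passed in neither, with Clec9a and Cd209a at 0 in all libraries. The 4 NK cell markers summed to 0.17 TPM or less, the 4 CD4 T cell markers to 3.36 to 8.01 and the 7 platelet and erythroid markers to 1.30 to 24.3.

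Within R7-II, replicate 2 had the least of the macrophage, B cell and MHC class II markers. Between the highest and the lowest R7-II library, Lyz2 differed 4.11-fold, Csf1r 5.80-fold and Cd79a 2.37-fold. Other markers differed less, Cd79b 1.85-fold, H2-Aa 1.79-fold and Cd74 1.65-fold. The median member differed 1.14-fold, Ctsd 1.18-fold, Ctsb 1.08-fold, Lipa 1.06-fold and Npc2 1.08-fold. Psap differed 1.26-fold, Npc1 1.55-fold, Grn 1.80-fold, Ctsl 1.69-fold and Ctss 1.41-fold, with replicate 3 highest in Grn, Ctsl and Ctss. From low to high, the replicates ran 2, 3, 1 in Ctsd, Psap and Lipa and in the markers Cd79a, Cd79b and H2-Aa. They ran 2, 1, 3 in Ctsb, Npc2 and Grn and in the markers Lyz2, Csf1r and Cd74. Ctss, a protease of antigen-presenting cells, was at 26.6, 30.9 and 27.9 TPM in R7-I, at 31.2, 29.9 and 42.1 TPM in R7-II and at 25.2, 23.2 and 24.6 TPM in R7-III, so that replicates 1 and 3 lay above every R7-I library and replicate 2 did not. Of the 24 members higher in both comparisons, 16 were lowest in replicate 2 within R7-II, 2 in replicate 1 and 6 in replicate 3. The median-of-ratios factor, which follows the typical gene, was also lowest in replicate 2 (1.05, beside 1.11 in replicate 1 and 1.08 in replicate 3). How many of all genes were lowest in replicate 2 was not counted. With replicate 2 as the only R7-II library, Ctsd was higher by 1.19 relative to R7-I and 1.10 relative to R7-III. Psap was higher by 0.84 and 0.68, Lipa by 0.83 and 0.78 and Npc2 by 0.55 and 0.61. Relative to R7-III, Grn was higher by 0.59, Ctss by 0.29, Ctsa by 0.18 and Tfeb by 0.42. Ctsl changed by -0.78 and -0.74. Replicate 2 still held markers of other cells, with Lyz2 at 13.8 TPM beside 0.25 to 2.43 in the other clones. This fit therefore cannot separate those cells from the clone. The paper reports that the sorted cells were not fully pure and gives no purity per clone. The part of other cells in the levels of the cathepsins and of Grn was not tested.

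**Figure D5:**
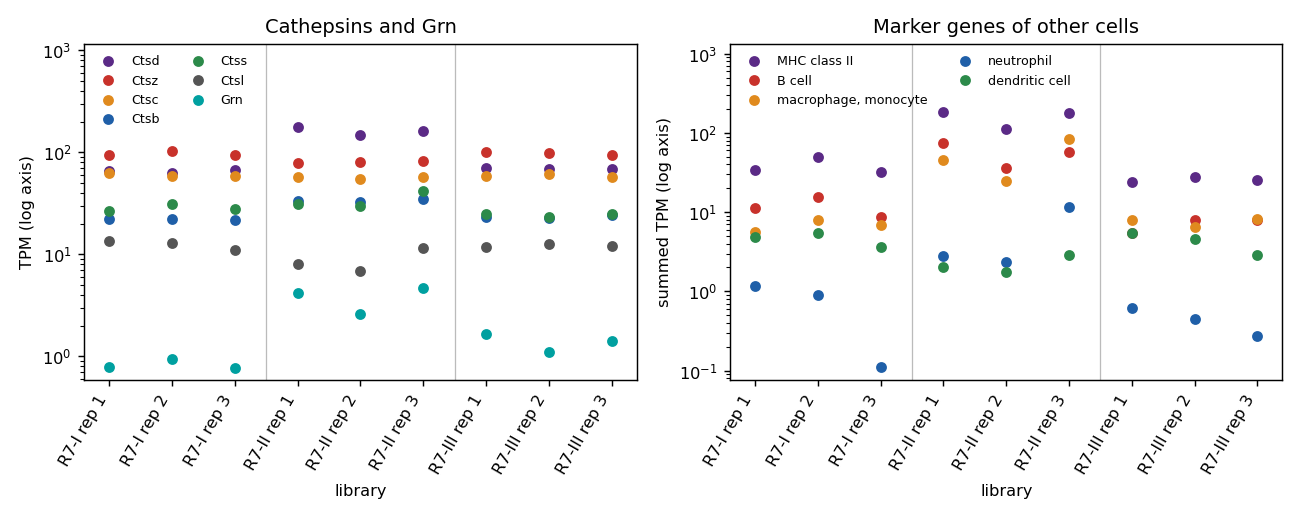
Left, TPM (log axis) of 6 cathepsins and Grn in each of the 9 libraries; right, summed TPM (log axis) of marker genes of other cells in the same libraries. In R7-II replicates 1, 2 and 3 the macrophage and monocyte sum is 45.7, 24.9 and 83.3 TPM, and Grn (4.21, 2.58 and 4.64 TPM) and Ctsd (176, 149.6 and 164 TPM) also have their lowest values in replicate 2, with a 1.80-fold and a 1.18-fold spread.

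Beyond the 44 members, 132 other genes of the same pathway were listed, of which 115 were tested. Of these, 68 were higher and 11 lower in R7-II than R7-I (40.6% and 15.5% of all genes), 52 were higher and 15 lower than in R7-III (35.6% and 18.0%), and 6 were higher and 1 lower in R7-III than R7-I (6.96% and 1.45%). After median-of-ratios scaling the balance was closer, with 39 higher and 24 lower relative to R7-I (25.2% and 29.4% of all genes). Relative to R7-III, 36 were higher and 23 lower (25.0% and 28.2%). Their median log2 fold change in R7-II was 0.28 relative to R7-I and 0.22 relative to R7-III, beside 0.17 and 0.12 over all genes. In both R7-II comparisons, 18 of the 40 other hydrolases tested were higher and 2 lower, where 31.9% and 12.8% of all genes were. After median-of-ratios scaling 17 of the 40 were higher and 5 lower relative to R7-I, and 15 and 6 relative to R7-III. The acid phosphatase Acp5 was at 11.3, 12.4 and 11.2 TPM in R7-I, at 47.7, 31.4 and 53.7 TPM in R7-II and 10.8, 11.7 and 10.95 TPM in R7-III. Ctsh, at 0.16 to 0.70, 1.45 to 4.41 and 0.34 to 0.65 TPM, differed 3.04-fold within R7-II, with replicate 2 lowest.

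Of the 31 other membrane proteins tested, 17 rose and 3 fell in R7-II relative to both clones (31.9% and 12.8% of all genes). After median-of-ratios scaling 14 were higher and 6 lower relative to R7-I (25.2% and 29.4% of all genes). Relative to R7-III these counts were 12 and 4 (25.0% and 28.2%). The relatives of Mcoln1 moved in the opposite direction to it. Mcoln2 was at 9.50, 9.83 and 8.43 TPM in R7-I, at 3.75, 2.63 and 2.75 TPM in R7-II and 9.76, 9.41 and 10.3 TPM in R7-III, and Mcoln3 at 10.5 to 11.4, 2.29 to 6.55 and 11.1 to 12.3 TPM. Both fell below the other clones in every R7-II library, with log2 fold changes of -1.35 and -1.43 for Mcoln2 and -1.45 and -1.53 for Mcoln3. Slc36a1, which exports amino acids from the lysosome, rose by 1.00 and 1.02.

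Of 20 sorting genes tested, 8 were higher and 3 lower relative to both clones, near the shares of all genes (31.9% and 12.8%). After median-of-ratios scaling 3 were higher and 5 lower relative to R7-I (25.2% and 29.4% of all genes). Relative to R7-III these counts were 4 and 6 (25.0% and 28.2%). Gnptab, the enzyme that begins the mannose 6-phosphate tag on hydrolases, was among the lower ones (-0.49 and -0.45), while Vps11 (0.46 and 0.42) and Ap3d1 (0.36 and 0.40), parts of the machinery that fuses and fills lysosomes, were higher. Of 9 further V-ATPase genes tested, the pump regulators Wdr7 (0.45 and 0.33) and Dmxl1 (0.33 and 0.39) were higher and the assembly factor Vma21 (-0.26 and -0.30) was lower. Of 15 genes of the TFEB family and of mTORC1 signalling at the lysosome, 4 were higher in both and 1 lower, where 31.9% and 12.8% of all genes were, and after median-of-ratios scaling 2 were higher and 5 lower relative to R7-I and 3 and 3 relative to R7-III. Zkscan3, a repressor of lysosomal and autophagy genes, rose by 0.86 and 0.54, and the folliculin partners Fnip1 and Fnip2 moved apart (0.45 and 0.48 against -0.46 and -0.47).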

How the data were processed

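The authors aligned the reads with RSEM 1.2.11 to RefSeq genes of mm10 and deposited TPM values per gene symbol, rounded to 2 decimals. The aligner called by RSEM is not given in the sources used. DESeq2 1.8.1, run by the authors on counts, belongs to their own test and was not used here. TPM keeps no depth, so no counting error is given. Columns were matched to samples by name.

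Genes with a maximum TPM above 1 were kept, and limma 3.58.1 (R 4.3.3) was run on log2(TPM + 1) (lmFit, contrasts.fit and eBayes with trend), with all 9 libraries in 1 fit, 6 residual degrees of freedom and Benjamini-Hochberg adjustment over the genes of each comparison. The fit was tested on simulated data in which few genes changed, as many up as down. That simulation cannot show how the fit behaves where many genes shift together, as they did here. Tables were made with pandas 2.3.3 in Python 3.11.15, positions came from GENCODE vM21 and promoter windows from RefSeq.

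The members, lists and tests were chosen with earlier results of these data known. Described in full were members that passed in both R7-II comparisons with changes over 0.58 in the same direction, members over 0.58 between R7-III and R7-I, and the highest mean TPM of each role group; others are given by ranges, counts and examples, and other pathway genes by the 3 largest changes of each list, of which 1 is not reported here. The settings varied were the pseudocount, the filter, the scaling, the eBayes trend, the threshold, the libraries entered (2 clones only, or 1 library left out in turn), a block for the replicate number and, chosen after seeing the data, R7-II replicate 2 alone, whose spread was taken from the other clones.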

Additional observations from a re-analysis of the deposited data

How the results depend on the processing

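Under quantile normalization, 19 members were higher in R7-II than R7-I instead of 29, 4 were lower than in R7-I, 4 were lower than in R7-III, and 2 were higher in R7-III than R7-I instead of 4. The share over all genes is not given for quantile normalization, an adjusted p of 0.05, a library left out or the replicate block. Counts under these settings show how calls shift and not whether the members exceed all genes. With median-of-ratios scaling, 16 members were higher in R7-II than R7-III instead of 25, 6 were lower than in R7-I and 4 lower than in R7-III instead of 1, and 1 (Atp6v1c1) was lower in R7-III than R7-I. Atp6v0b (-0.18), Atp6v1h (-0.17) and Atp6v1b2 (-0.001) turned from positive to negative between R7-II and R7-I under this scaling, which lowers every R7-II library relative to the others. At an adjusted p of 0.05, 2 members (Ctsz and Ctsl) were lower in R7-II in each comparison and 8 were higher in R7-III than R7-I. With R7-II replicate 2 alone in its clone, 14 were higher than in R7-III.

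With 1 library left out in turn, 25 to 30 members were higher in R7-II than R7-I, 22 to 26 were higher than in R7-III, and 1 to 2 were lower in each, with 2 only without R7-II replicate 3. The count higher in R7-III than R7-I ran from 1 to 5. Of the 29 members higher in R7-II than R7-I, 24 passed with each library left out and 17 in every setting tried, and of the 25 higher than in R7-III these were 21 and 12. Ctsd, Psap, Lipa, Man2b1, Npc2 and Atp6v0e2 passed in both comparisons in every setting in which they were tested.

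Clones share replicate numbers, but same-numbered libraries did not deviate together (correlations of deviations from the clone means of -0.0449 to 0.0888). With the number as a replicate block, 28 members were higher in R7-II than R7-I and 26 than R7-III, and 2 were higher in R7-III than R7-I, Galns (adjusted p = 0.0119 from limma) and Scarb2 (adjusted p = 0.0175) no longer passing. Npc1 was no longer higher in R7-II than R7-I (adjusted p = 0.0137 from limma). Depth is unknown, so the precision of low genes such as Atp6v0e2, Grn and Cd63 cannot be stated.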
